A study of Mus musculus with 4 samples.

Results

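The genes of the tumour necrosis factor (TNF) superfamily and of NF-κB signalling were compared between bone marrow of mice with MN1 leukemia and mature myeloid cells of healthy mice. They were chosen by symbol, as every gene whose symbol starts with Tnf, Nfkb or Ikbk, the TRAF adaptors numbered 1 to 7, Rel, Rela, Relb, Fas and Fasl. This gave 56 of the 18193 genes that a probe set with a single gene symbol names, and each gene was read from its brightest probe set. Of the 56 genes, 43 passed the filter on low signals and were tested among 12378 genes. No member was chosen by its values, but the list was drawn up with earlier results of these data known.

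The series holds 4 arrays, 2 in each group, which the design text describes as biological replicates. The leukemic arrays hold RNA of bone marrow from C57BL/6J mice that had been irradiated with 750 cGy and transplanted with marrow cells carrying MN1, a transcriptional coregulator, from a retrovirus that also marks cells with GFP. The donors of those cells had received 150 mg/kg fluorouracil 4 days before harvest. The cells were stimulated for 48 hours with interleukins and stem cell factor, infected, sorted for GFP and injected with a life-sparing dose of normal marrow. The mature arrays hold RNA of Gr1-positive and CD11b-positive (Mac1) marrow cells of healthy C57BL/6J mice. The treatment text is the same for all 4 samples. Fluorouracil, culture and irradiation were taken to apply to the leukemic group only, because the mature cells are described as coming from healthy mice. The labels do not say whether leukemic marrow was sorted before RNA extraction, so normal host or helper cells may be in it, and they give no age or number of mice for an array. No normal immature cells were measured, so MN1 leukemia and immaturity cannot be told apart.

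TNF family ligands are trimers, mostly held on the cell surface, that cluster receptors of the TNF receptor family. Some of the receptors carry a death domain that can lead to caspases. Many, among them some with a death domain, act through TRAF adaptors, which activate the IκB kinase (IKK). IKK marks the IκB inhibitors for degradation, and dimers of REL and NFKB proteins then enter the nucleus. Several IκB genes are themselves NF-κB targets, which makes a negative feedback loop. In neutrophils and monocytes this pathway is known for driving inflammatory cytokines and for delaying cell death.

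Each value is a MAS5 signal, an array brightness without a unit, and the authors had scaled all arrays to 1 trimmed mean. Log2 fold changes give the leukemic mean less the mature mean of log2(signal + 16), so that changes of dim genes are understated, ± is the SD (n = 2) and SE is the standard error of a log2 fold change. Adjusted p is from limma adjusted by Benjamini-Hochberg across the 12378 genes, and a gene passed below 0.05. Having 2 arrays in each group limits how precise any of these values can be. For Mn1 itself the leukemic signals were 17.7 and 92.6 against 3.92 and 12.1, below the filter. Itgam, which encodes CD11b, read 584 and 306 against 4288 and 4407. In bulk RNA, fewer cells of a type and less RNA per cell cannot be told apart.

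The groups also differed in other cell type markers and in RNA measures. All 11 tested monocyte and macrophage markers fell in leukemic marrow, with a summed signal of 12668 to 20633 against 68833 to 103110. Of 11 neutrophil markers 5 fell and 6 did not pass, with sums of 262640 to 455770 against 370310 to 459770, while 10 of 11 stem and progenitor markers rose (68377 to 78889 against 3644 to 5412). Of 7 tested mast cell and basophil markers 6 rose (61929 to 74118 against 10838 to 13698), as did 6 of 7 tested erythroid markers (85030 to 105440 against 4401 to 9464). Gata2, at 8610 and 6553 against 107 and 105, counts in both the stem and progenitor and the mast cell and basophil lists. The B cell markers summed to 1066 to 1163 against 895 to 1108, and the natural killer cell markers to 1226.5 to 1881 against 1542 to 1951. Plasma cell markers fell in 4 of 8, with Igha at 10.8 and 8.59 against 5805 and 1023, and T cell markers rose in 3 and fell in 1 of 4 tested. Among them Il7r read 950.1 and 1079.8 against 52.2 and 82.2 and Cd3d 42.6 and 6.30 against 373 and 384, and Cd247 and Bcl11b lost their calls without leukemic replicate 2 (adjusted p = 0.11 and 0.064). Megakaryocyte markers rose in 2 and fell in 2 of 9. The beta-actin probe sets at the 3′ end read brighter than those at the 5′ end, by a ratio of 3.09 to 3.28 in the leukemic arrays and 1.32 to 1.39 in the mature ones. Xist read 7138 in mature replicate 1 and 114 in mature replicate 2, and the Y-linked gene Eif2s3y 2.90 and 4409, so the mature replicates differ in these sex-linked genes. The leukemic arrays read 14512 and 19642 for Xist and 3.01 and 2.51 for Eif2s3y, so only mature replicate 2 had high Eif2s3y. The part of these differences in the results on the TNF and NF-κB genes was not tested.

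Of the 43 tested members 20 passed (46.5%), beside 43.4% of all tested genes, so the share that changed was near the background. By direction, 17 members fell in leukemic marrow (39.5%), beside 15.9% of all genes, and 3 rose (6.98%), beside 27.5%. The median log2 fold change was -0.72 over the tested members and 0.28 over all tested genes. These counts and medians describe the members that were bright enough to be tested, and a gene bright in a single group could enter through that group alone. The 4 arrays of 29 of the 43 members did not overlap between groups, beside 74.2% of all tested genes. The hybridization controls had a geometric mean signal of 11920 and 8950 in the leukemic arrays against 4044 and 4167 in the mature ones. The direction of all genes depends on the scaling: 63.3% of changed genes were higher as deposited, 49.7% with every array at the same median and 15.4% with arrays scaled to the hybridization controls. The median over the members lay below that over all genes under each, at -1.04 against -0.02 with equal medians and at -2.04 against -0.95 with the control scaling. All 17 members called lower were called lower under both scalings as well.

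**Figure D1:**
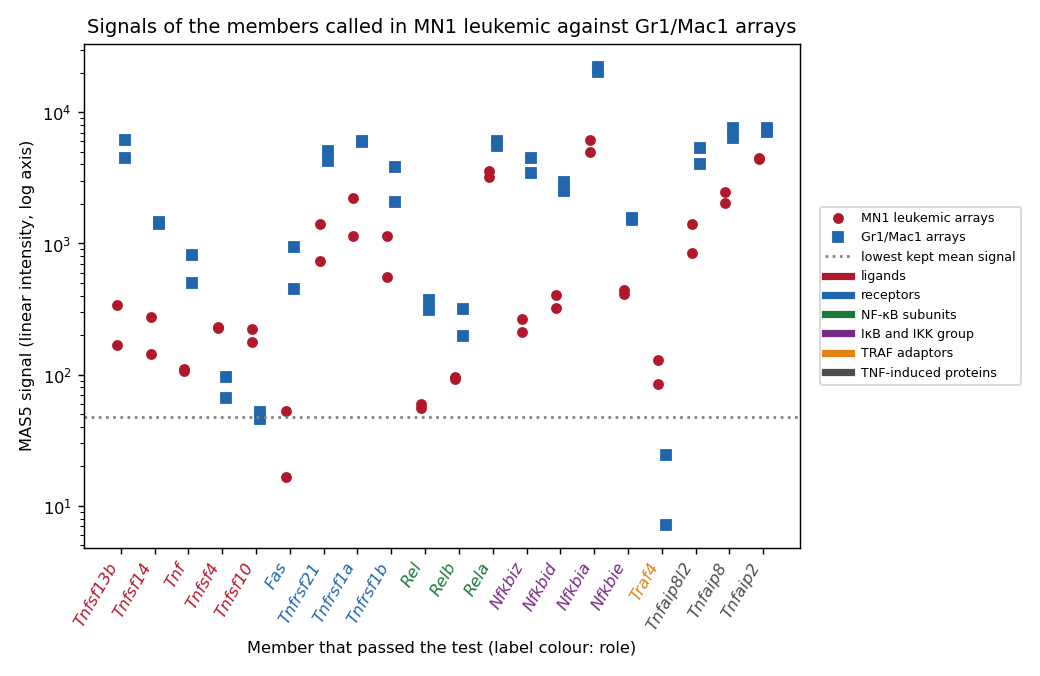
MAS5 signal (log axis) of the 20 members that passed, with 2 MN1 leukemic arrays (circles) and 2 Gr1/Mac1 arrays (squares) for each gene, the label colour giving its role and the dotted line the lowest mean signal kept, 47.6. The leukemic arrays lie below both mature arrays in 17 genes and above both in Tnfsf4, Tnfsf10 and Traf4.

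Among the ligands, 3 fell and 2 rose of 5 tested, and 4 others were too dim to test. Tnfsf13b encodes BAFF, a survival factor for B cells that myeloid cells make. Its signals were 338 and 168 in leukemic marrow against 6151 and 4490 in mature cells (-4.37, SE 0.36, adjusted p = 4.1e-04). Its other kept probe sets fell as well, with log2 fold changes of -2.03 and -2.96. Tnfsf14 encodes LIGHT, a ligand of the lymphotoxin beta receptor. Its signals were 276 and 144 against 1398 and 1464, with both leukemic arrays far below both mature ones (-2.74, SE 0.34, adjusted p = 0.0015). Tnf, the founding cytokine of the family, read 111 and 107 against 810.0 and 500.2 (-2.39, SE 0.35, adjusted p = 0.0023). The leukemic arrays were nearly alike for this gene, while the mature arrays were 655 ± 219.

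Both raised ligands were dim. Tnfsf10 encodes TRAIL, which triggers death receptors, and read 177 and 222 against 45.8 and 51.6 (1.73, SE 0.41, adjusted p = 0.014). Its other kept probe sets gave 0.95 and 0.90 and did not pass (adjusted p = 0.13 and 0.27). Tnfsf4, the OX40 ligand, which costimulates T cells, read 229 and 228 against 66.7 and 95.7 (1.35, SE 0.38, adjusted p = 0.027). The Tnfsf10 call was lost without leukemic replicate 1 (1.88) or leukemic replicate 2 (1.58), and that of Tnfsf4 when either leukemic array (1.34 without replicate 1, 1.35 without replicate 2) or mature replicate 1 (1.13) was left out. Scaling to the hybridization controls also ended both calls, at 0.60 and 0.16. The Tnfsf10 call was lost with the mean of its probe sets too (1.19), and that of Tnfsf4 with no filter (1.35), quantile normalization (1.03) and equal medians (1.07). Fasl, the Fas ligand of cytotoxic cells, was not tested, at 30.0 and 57.2 against 3.46 and 32.0. Tnfsf8 read 52.1 and 20.9 against 16.1 and 8.20, and Tnfsf9 and Tnfsf11 stayed at 41.1 and 26.5 or below on all 4 arrays. The antisense RNA Tnfsf13os, which the symbol rule also takes, read 128 and 69.3 against 148 and 24.9 and did not pass (0.44, SE 0.72).

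Among the receptors, 4 fell and 9 did not pass of 13 tested, and 7 were too dim to test. Fas, the death receptor bound by Fasl, read 16.7 and 53.3 in leukemic and 939 and 453 in mature arrays. Both leukemic signals were far below both mature ones, and the leukemic pair lies near the filter (-3.81, SE 0.53, adjusted p = 0.0020). Tnfrsf1a and Tnfrsf1b encode the TNF receptors TNFR1, which carries a death domain, and TNFR2, which does not. Tnfrsf1a read 2235 and 1134 against 5936 and 6024 (-1.90, SE 0.34, adjusted p = 0.0046). Tnfrsf1b read 1138 and 557 against 3816 and 2053 (-1.79, SE 0.42, adjusted p = 0.014). The Tnfrsf1b call was lost without leukemic replicate 2 (-1.29) or mature replicate 1 (-1.35). Thus the ligand Tnf and both of its receptor genes read lower in leukemic marrow. Tnfrsf21, the death receptor DR6, read 1417 and 740 against 5042 and 4252 (-2.16, SE 0.34, adjusted p = 0.0028), and its dimmer probe set fell too, with -1.33 (adjusted p = 0.011).

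The receptors that did not pass included those best known from lymphocytes. Tnfrsf13b encodes TACI, a receptor for BAFF, and read 1270.5 and 1359 against 1105.5 and 499 (0.81, SE 0.38, adjusted p = 0.13). It passed as higher without mature replicate 1 (1.37). The other BAFF receptor genes were dim, with Tnfrsf13c at 5.42 and 42.96 against 12.6 and 52.8, and Tnfrsf17, which plasma cells use, at 3.66 and 12.3 against 53.7 and 29.1. So the ligand gene Tnfsf13b read lower in leukemic marrow while its brightest measured receptor gene gave no call. Tnfrsf18 (GITR) read 675 and 854 against 515 and 487 without overlap (0.59, SE 0.26, adjusted p = 0.11). Tnfrsf4, the OX40 receptor, read 235 and 252 against 203 and 552 (-0.44, SE 0.47), and passed as lower without mature replicate 1 (-1.13). Tnfrsf12a, the receptor of TWEAK, read 20.7 and 44.8 against 152 and 79.8 (-1.42, SE 0.56, adjusted p = 0.078). It passed as lower with equal medians (-1.67), with the control scaling (-2.415) and with no variance trend (adjusted p = 0.048). The dimmer probe set of Tnfrsf12a gave -1.005 and did not pass (adjusted p = 0.37). Tnfrsf11a encodes RANK, the receptor of osteoclast precursors, and read 48.9 and 14.9 against 65.5 and 107 (-1.16, SE 0.60, adjusted p = 0.16). Tnfrsf22 (-0.55) and Tnfrsf23 (0.15), mouse decoy receptors for TRAIL, Tnfrsf9 (-0.28) and Tnfrsf19 (-0.17) did not pass, with adjusted p from 0.37 to 0.83. Tnfrsf10b, the mouse death receptor for TRAIL, was untested at 89.1 and 50.6 against 3.10 and 31.2. Tnfrsf8, Tnfrsf11b, Tnfrsf14 and Tnfrsf25 were untested too, with no signal above 52.9.

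Of the NF-κB subunits, 3 fell and 1 did not pass. Rel encodes c-Rel, a subunit prominent in blood cells, and read 60.1 and 55.9 in leukemic against 312 and 373 in mature arrays. The replicates of each group lay close together and the groups far apart (-2.27, SE 0.36, adjusted p = 0.0031). Relb, the partner of NFKB2 in the noncanonical pathway, read 95.4 and 93.2 against 319 and 198 (-1.28, SE 0.39, adjusted p = 0.035). Rela encodes p65, the main activating subunit, and read 3208 and 3581 against 5986 and 5564.5. This fall was smaller (-0.77, SE 0.22, adjusted p = 0.029). The Rela call was lost without leukemic replicate 1 (-0.69) or leukemic replicate 2 (-0.84), with quantile normalization (-0.60) and with no variance trend (adjusted p = 0.069). Leaving out any 1 of 3 arrays ended the call of Relb: leukemic replicate 1 (-1.30), leukemic replicate 2 (-1.27) and mature replicate 1 (-0.96). It was also lost with no filter (adjusted p = 0.077). Nfkb2 encodes p100, which is cut to p52, and its 2 probe sets pointed in opposite directions. The brighter read 329 and 395 against 69.2 and 340, with 1 mature array near the leukemic ones (1.11, SE 0.64, adjusted p = 0.20), and the dimmer read 41.6 and 211 against 245 and 239 (-1.17, SE 0.63). The brighter one passed as higher without mature replicate 2 (2.14). No direction is given for Nfkb2. Nfkb1 had no probe set naming it alone here.

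The IκB and IKK group held 9 genes, all tested, of which 4 fell and 5 did not pass. Nfkbia encodes IκBα, the classical inhibitor, and read 6186 and 4980.0 in leukemic against 22173 and 20396 in mature arrays (-1.93, SE 0.24, adjusted p = 0.0015). Each of its 5 probe sets fell, with log2 fold changes from -2.23 to -1.14. Nfkbie, IκBε, read 411 and 444 against 1521 and 1566 (-1.82, SE 0.24, adjusted p = 0.0016). On this probe set the replicates of Nfkbie were nearly equal in both groups. Its dimmer probe set read 226 and 129 against 379 and 400. That one was called lower too, with a smaller change (-1.115, SE 0.36), so the size of the Nfkbie fall depends on the probe set.

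Nfkbiz and Nfkbid encode the nuclear IκB proteins IκBζ and IκBNS, which bind NF-κB on DNA and modulate target genes. Nfkbiz read 265 and 211 against 3449 and 4475 (-3.97, SE 0.26, adjusted p = 2.1e-04). Its other probe sets gave -2.02 (adjusted p = 0.0061) and -1.32 (0.062), so the size of this change depends on the probe set. Nfkbid read 402 and 321 against 2929 and 2531 (-2.87, SE 0.25, adjusted p = 4.8e-04). Bcl3, another nuclear IκB gene, outside the symbol rule, read 176 and 154 against 716 and 1302 (-2.44, SE 0.36, adjusted p = 0.0023).

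The other inhibitors and the kinase subunits did not pass. Nfkbib, IκBβ, read 526 and 651 against 715 and 526 with overlapping arrays (-0.07, SE 0.29, adjusted p = 0.87). Ikbkg encodes NEMO, the regulatory subunit of IKK, and read 1234 and 1242 against 1279.5 and 1456 (-0.14, SE 0.23, adjusted p = 0.66). Ikbkb, the catalytic subunit IKKβ, read 2124 and 2045 against 4695 and 2669 (-0.76, SE 0.31, adjusted p = 0.085), and passed as lower without mature replicate 2 (-1.17). Ikbke, an IKK-related kinase, read 886 and 284 against 1775 and 638, with a wide spread in both groups (-1.06, SE 0.63, adjusted p = 0.22). Nfkbil1, named for its likeness to IκB, read 336 and 278 against 925 and 416 (-0.99, SE 0.41, adjusted p = 0.091) and passed as lower without mature replicate 2 (-1.55). With arrays scaled to the hybridization controls these 5 genes were called lower.

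**Figure D2:**
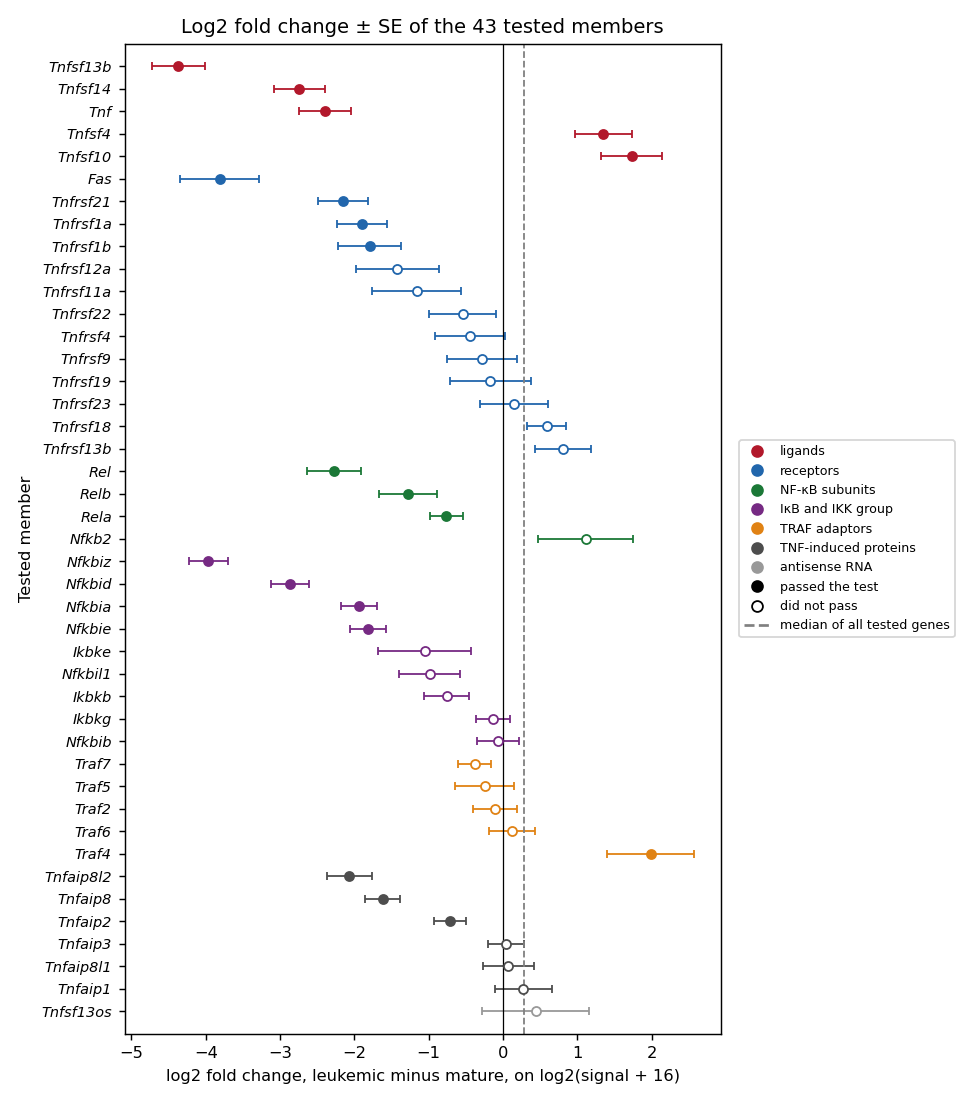
Log2 fold change (leukemic minus mature, on log2(signal + 16)) with its SE for the 43 tested members, grouped by role, filled where the gene passed, with a dashed line at the median of all tested genes, 0.28. Values run from -4.37 for Tnfsf13b to 1.99 for Traf4, and no receptor, subunit, inhibitor or TNF-induced gene passed as higher.

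The upstream sequence of the members was searched because several inhibitor and subunit genes fell together and are textbook NF-κB targets. The search took a core of the κB site, GGG and TTCC with 3 bases of any kind between them, on both strands of the 250 bases before each start in a RefSeq promoter table (build GRCm38.p6), which holds 46 of the 56 members. Of these 46 genes 11 had a match, beside 5.31% of all 27025 genes in the table (4.65% of 32851 windows). A match was found in 4 of 14 genes called lower (Nfkbia, Nfkbid, Nfkbie and Rel) and in 6 of 20 tested genes that did not pass (Nfkb2, Tnfaip3, Tnfaip8l1, Tnfrsf9, Traf5 and Traf7). Both genes called higher that the table holds had none, and of the untested genes Tnfrsf25 had one. A match is a description of letters, not a bound site. Windows of 3 genes that fell and of 2 that did not pass are shown to compare the sites, read 5′ to 3′ on the gene's strand and ending at the base before the start, with each match in capitals (a match on the opposite strand appears as its reverse complement).
Nfkbia, chr12:55492648-55492897, minus strand: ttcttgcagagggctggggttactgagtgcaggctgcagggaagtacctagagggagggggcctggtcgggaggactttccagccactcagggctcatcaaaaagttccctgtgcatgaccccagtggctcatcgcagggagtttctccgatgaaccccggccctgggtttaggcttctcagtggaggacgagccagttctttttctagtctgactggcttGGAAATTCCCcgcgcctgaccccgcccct
Nfkbie, chr17:45555450-45555699, plus strand: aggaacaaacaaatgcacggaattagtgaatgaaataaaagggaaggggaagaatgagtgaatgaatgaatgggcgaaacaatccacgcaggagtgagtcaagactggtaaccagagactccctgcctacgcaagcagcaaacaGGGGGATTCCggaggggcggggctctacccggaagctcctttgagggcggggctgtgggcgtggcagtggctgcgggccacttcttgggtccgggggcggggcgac
Rel, chr11:23770970-23771219, minus strand: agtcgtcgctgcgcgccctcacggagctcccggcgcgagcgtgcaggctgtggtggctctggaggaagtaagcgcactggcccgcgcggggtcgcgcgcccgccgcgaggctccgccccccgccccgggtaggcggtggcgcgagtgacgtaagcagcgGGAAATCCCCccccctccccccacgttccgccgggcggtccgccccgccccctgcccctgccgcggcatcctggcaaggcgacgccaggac
Nfkb2, chr19:46304487-46304736, plus strand: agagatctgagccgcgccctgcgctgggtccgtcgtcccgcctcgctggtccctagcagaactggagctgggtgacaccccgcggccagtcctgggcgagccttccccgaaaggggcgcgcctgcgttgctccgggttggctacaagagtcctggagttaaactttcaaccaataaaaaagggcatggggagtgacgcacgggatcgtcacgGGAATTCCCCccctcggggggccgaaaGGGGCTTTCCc
Tnfaip3, chr10:19015411-19015660, minus strand: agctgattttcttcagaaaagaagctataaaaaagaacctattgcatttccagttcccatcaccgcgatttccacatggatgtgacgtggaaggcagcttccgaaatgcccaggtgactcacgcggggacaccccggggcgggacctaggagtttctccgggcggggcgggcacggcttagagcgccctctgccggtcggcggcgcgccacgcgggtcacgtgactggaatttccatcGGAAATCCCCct
The match began 29 bases before the start in Nfkbia, 106 in Nfkbie, 91 in Rel and 12 in Tnfaip3, and Nfkb2 held 2, at 38 and 11 bases. Nfkb2 has 3 windows and Tnfaip3 2, and for these genes the window and positions given are those of the furthest upstream one. The sites of Rel and Tnfaip3 have the same letters, GGGGATTTCC on the opposite strand, although Rel fell and Tnfaip3 gave no call.

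Among the TRAF adaptors, 1 rose and 4 did not pass of 5 tested. Traf4, an adaptor best known from epithelial and neural tissue, read 85.1 and 129 in leukemic and 24.2 and 7.20 in mature arrays. The gene is dim throughout, and both leukemic signals exceed both mature ones (1.99, SE 0.58, adjusted p = 0.030). Its other probe set rose as well (2.18, adjusted p = 0.023). Leaving out any 1 of 3 arrays ended the call of Traf4: leukemic replicate 1 (2.25), leukemic replicate 2 (1.73) and mature replicate 2 (1.59). Quantile normalization (1.76) and scaling to the hybridization controls (1.09) ended it too. Traf2, an adaptor of the TNF receptors, read 541 and 607 against 755 and 509 (-0.11, SE 0.29). Traf6, which serves Toll-like and interleukin receptors, read 419 and 491 against 338 and 507 (0.12, SE 0.31). Traf5 read 271 and 267 against 465 and 222 (-0.25, SE 0.40) and Traf7 1179 and 1228 against 1504 and 1650 (-0.38, SE 0.22), and none of these 4 passed (adjusted p = 0.21 to 0.79). Traf1 read no more than 59.1 on any array and was not tested, and Traf3 had no probe set naming it alone here.

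Of the genes with Tnfaip symbols, here called TNF-induced proteins, 3 fell and 3 did not pass of 6 tested. They are grouped by name, only some, such as Tnfaip8 and Tnfaip8l2, are relatives, and induction by TNF was not tested. Tnfaip8l2 encodes TIPE2, a restraint on immune receptor signalling, and read 1399 and 848 in leukemic against 5309 and 4024 in mature arrays (-2.07, SE 0.31, adjusted p = 0.0025). Its relative Tnfaip8 read 2475 and 2025 against 6324 and 7586 (-1.62, SE 0.24, adjusted p = 0.0024), and a second probe set gave -2.01. Both genes read lower in each leukemic array than in either mature array. Tnfaip2, a regulator of membrane protrusions, read 4518 and 4401 against 7126 and 7567 (-0.72, SE 0.22, adjusted p = 0.035). Its other kept probe set gave -0.69 and did not pass among the probe sets (adjusted p = 0.064). The Tnfaip2 call was lost without leukemic replicate 1 (-0.74) or leukemic replicate 2 (-0.70), with quantile normalization (-0.51) and with no variance trend (adjusted p = 0.077). Tnfaip3 encodes A20, the ubiquitin-editing enzyme that shuts off NF-κB signalling. It read 1036 and 1258 against 1206 and 1021 (0.04, SE 0.25, adjusted p = 0.91). The missing call does not show equal levels. Tnfaip1 (0.27, SE 0.39) and Tnfaip8l1 (0.07, SE 0.34) did not pass, and Tnfaip6, a hyaluronan-binding protein gene, was untested at 15.98 and 2.29 against 35.4 and 81.7.

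Within the leukemic group, the members that fell were not equally low. Leukemic replicate 1 read above leukemic replicate 2 in 14 of the 17 genes called lower, beside 49.4% of all tested genes, with a median log2 difference of 0.31. The widest such gaps among them were in Fas, which was higher in leukemic replicate 2, and in Tnfrsf1b, Tnfrsf1a, Tnfsf13b, Tnfrsf21 and Tnfsf14, where replicate 2 had the lower signal. Over the same arrays, 10 of 11 neutrophil markers were higher in leukemic replicate 1 (median log2 difference 0.95), as were 9 of 11 monocyte markers (0.62), while 9 of 11 stem and progenitor markers were higher in leukemic replicate 2. Their part in the spread of the members was not tested.

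**Figure D3:**
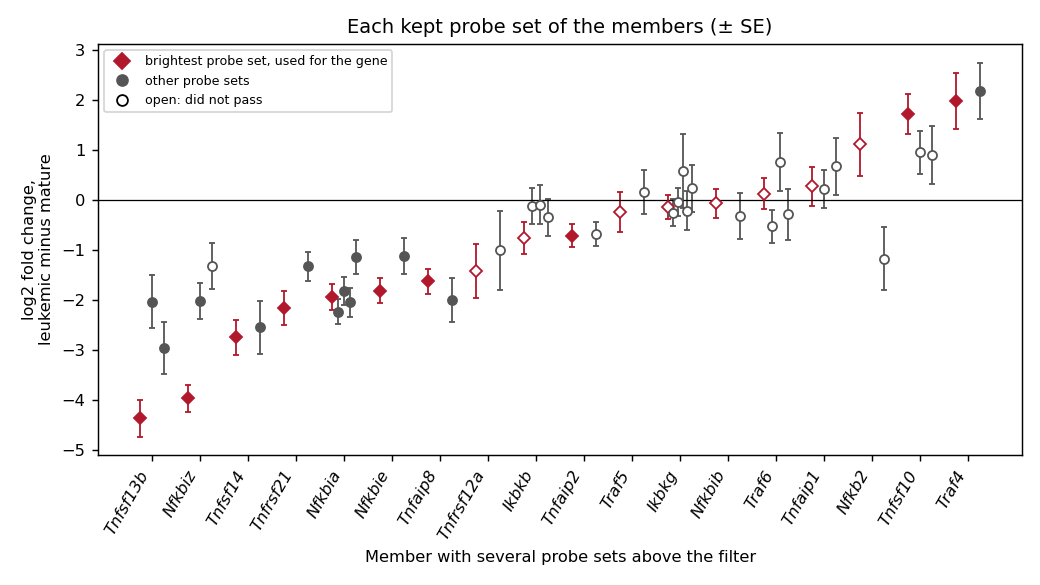
Log2 fold change with its SE of each probe set above the filter for the 18 members with several, the brightest as a diamond and the others as circles, filled where the probe set passed among 27022 probe sets. In 14 of these 18 genes all kept probe sets have the same sign, and in none were probe sets called in opposite directions; those of Nfkb2 point apart without passing.

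Probe sets of 1 gene gave a further view of the calls. Of the 107 probe sets of the members 76 were kept, and 28 of them fell and 4 rose, beside 13.6% and 21.2% of all kept probe sets (34.9% in either direction). Probe sets of a gene read the same RNA and are not independent. The 4 genes with kept probe sets of both signs were Ikbkg, Nfkb2, Traf5 and Traf6, and none of these was called. Tnfsf12 and Tnfsf13, the genes of TWEAK and APRIL, were named only jointly. A probe set for both and their fusion transcript Tnfsfm13 read 609 and 311 against 2856 and 1246 (-2.07, SE 0.47, adjusted p = 0.014 over probe sets), whereas one for Tnfsf12 and Tnfsfm13 read 177 and 201 against 161 and 156 (0.23, SE 0.34). A probe set naming Tnfrsf22 and Tnfrsf23 together read 211 and 118 against 317 and 382. It did not pass (-1.06, SE 0.38, adjusted p = 0.066 over probe sets).

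Other genes of the pathway were taken from lists chosen with earlier results known, so their counts are descriptions. Family members under other symbols fell in 4, rose in 2 and did not pass in 1 of 7 tested cases, with a median of -1.21, where 15.9% of all tested genes were lower and 27.5% higher. Ltb encodes lymphotoxin beta and read 361 and 196 against 7359 and 4708 (-4.38, SE 0.36, adjusted p = 4.0e-04). Its receptor gene Ltbr, chosen after its values were seen, read 404 and 291 against 888 and 748 (-1.21, SE 0.29, adjusted p = 0.014), a call lost without leukemic replicate 2 (-0.99). Edaradd, an adaptor of the ectodysplasin receptor, fell, with -2.51 (adjusted p = 0.013; -2.23 and no call without mature replicate 2). Relt, a TNF receptor family gene, fell, with -1.29 (adjusted p = 0.011; -1.07 and no call without leukemic replicate 2). Cd27, a receptor of lymphocytes and early progenitors, rose from 20.1 and 9.66 to 454 and 484 (3.99, SE 0.42, adjusted p = 8.1e-04). Eda2r rose from 39.9 and 7.37 to 90.7 and 211 (2.11, SE 0.66, adjusted p = 0.038). Leaving out any 1 of 3 arrays ended the call of Eda2r: leukemic replicate 1 (2.65), leukemic replicate 2 (1.56) and mature replicate 2 (1.48). It was also lost with 1 in place of 16 added to the signals, no filter, quantile normalization and scaling to the hybridization controls.

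Among 45 tested transducers and ubiquitin ligases 12 fell, 4 rose and 29 did not pass, with a median of -0.40, beside 15.9% lower, 27.5% higher and a median of 0.28 over all tested genes. Card10, a scaffold that leads to IKK, read 1043 and 561 against 6519 and 5892 (-2.99, SE 0.32, adjusted p = 8.7e-04). Irak3, a brake on Toll-like receptor signalling, read 634 and 472 against 3958 and 3779.5 (-2.79, SE 0.25, adjusted p = 5.3e-04). Ripk3, the kinase that starts necroptosis, went the other way, at 2428 and 2499 against 548 and 385 (2.38, SE 0.26, adjusted p = 9.6e-04). Traf3ip1 (1.22, adjusted p = 0.028) and the death domain adaptor gene Fadd (0.84, adjusted p = 0.047) rose too. Both calls were lost without leukemic replicate 1 (1.29 and 1.01) or leukemic replicate 2 (1.15 and 0.67), and that of Fadd without mature replicate 1 (0.70). No filter, quantile normalization and equal medians ended both calls too. The Fadd call was also lost with the mean of its probe sets and with no variance trend. With arrays scaled to the hybridization controls Ripk3 was still called higher, while Traf3ip1 and Fadd were not called, Fadd with its sign turned (-0.46).

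Of 30 tested genes from a textbook list of NF-κB targets 16 fell, 3 rose and 11 did not pass, with a median of -1.26. Over all tested genes 15.9% were lower and 27.5% higher. Among the falls were those of Ptgs2, the inducible cyclooxygenase, at 4.37 and 1.79 against 1330.1 and 2005 (-6.44, SE 0.38, adjusted p = 1.5e-04), and of the chemokine gene Cxcl2, at 173 and 114 against 5356 and 4998 (-5.05, SE 0.28, adjusted p = 1.4e-04). Il1b, the interleukin 1β gene, read 416 and 450 against 5624 and 12976 (-4.25, SE 0.39, adjusted p = 5.6e-04). The list did not move one way. Myc rose from 189 and 130 to 4334 and 4014 (4.60, SE 0.27, adjusted p = 1.5e-04), and Il6 from 19.1 and 1.33 to 206 and 486 (3.76, SE 0.61, adjusted p = 0.0033). Sod2, the mitochondrial superoxide dismutase gene, rose by 1.12 (SE 0.23, adjusted p = 0.0078), a call lost without leukemic replicate 2 (1.06), with every array at the same median and with the control scaling, which turned its sign (-0.20). The list shares 3 genes, Mmp9, Lcn2 and Il1b, with the neutrophil markers.

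**Figure D4:**
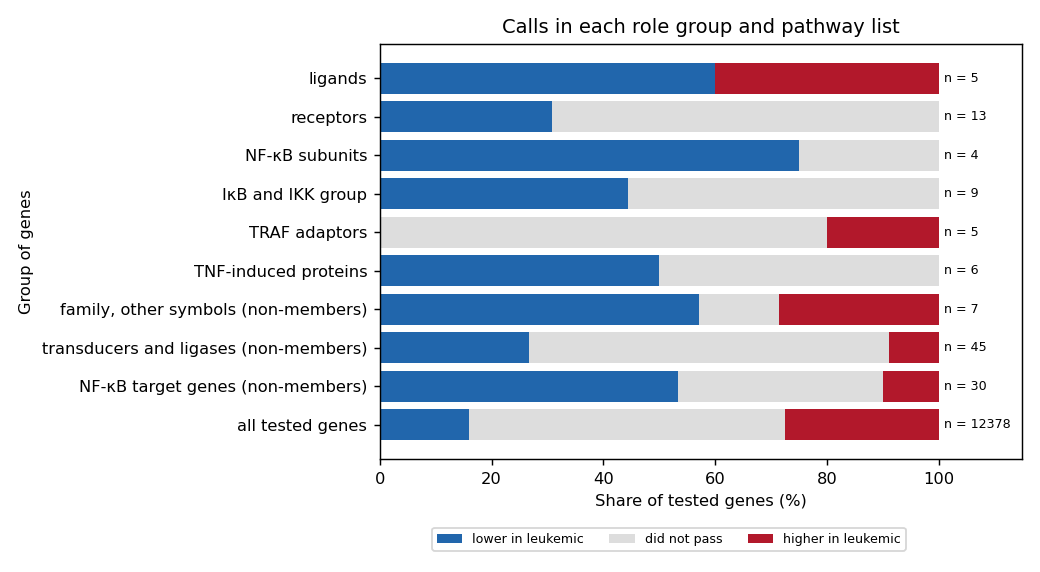
Share of tested genes (%) called lower (left), not passing (middle) and higher (right) in leukemic arrays for 6 role groups of members (Tnfsf13os is not shown), 3 lists of other pathway genes and all 12378 tested genes, with the number tested at the right. Each role group shown except the TRAF adaptors holds genes called lower, and only ligands and TRAF adaptors hold members called higher.

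**Figure D5:**
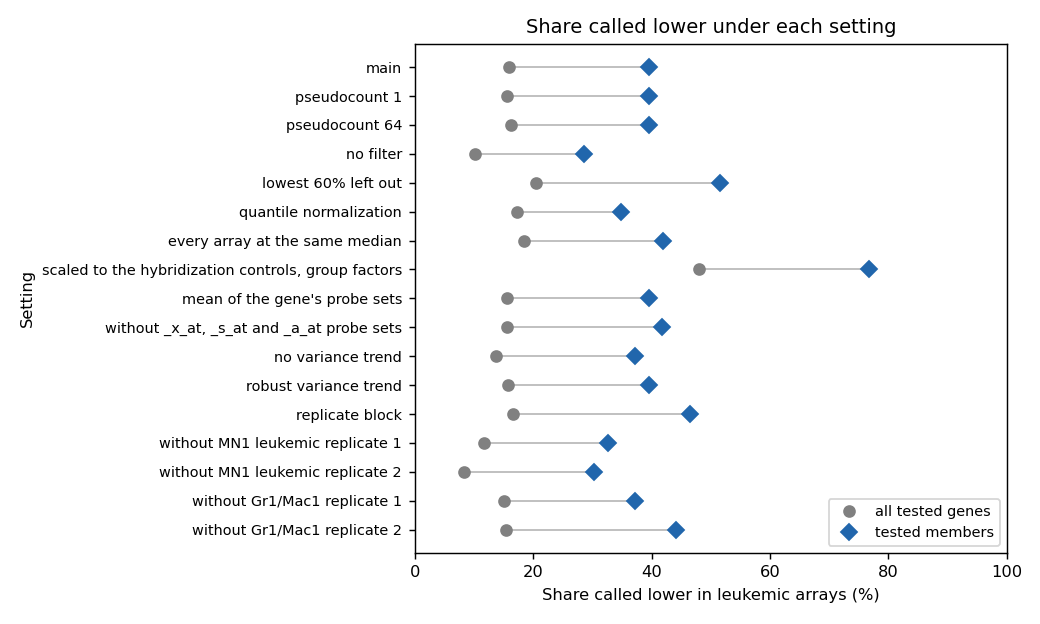
Share (%) of tested members (diamonds) and of all tested genes (circles) called lower in leukemic arrays under the reported setting and each of 16 alternatives. The members lie above all genes in each row, at 39.5% against 15.9% as reported and 76.7% against 48.0% with arrays scaled to the hybridization controls.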

How the data were processed

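The authors deposited 1 intensity per probe set and array, computed by MAS5 in GCOS 1.3.0 according to the submitters' processing notes. No source used here gives the scale target or detection calls. The trimmed mean was 500.003 to 500.004 in all 4 arrays, so the authors had scaled each linearly. MAS5 leaves dim probe sets noisy, and RNA composition can move all signals.

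Of 45101 probe sets, 64 controls were left out of the tests. The platform annotation gave 34945 probe sets 1 symbol, 932 several and 9160 none, and 0 symbols changed against a RefSeq table of GRCm38.p6. Signals were taken as log2(signal + 16). The dimmest 40% of probe sets by mean signal were left out (lowest kept mean 47.6), and each gene was read from its brightest probe set. limma 3.58.1 in R 4.3.3 (lmFit, eBayes with a variance trend, two-sided) compared the groups, with 6.90 degrees of freedom after moderation and a median SE of 0.33. The fit was also run on simulated arrays as a check of the code. Those arrays had far fewer changed genes than the real ones and no trend of variance with signal, so the run does not bear on the calls given here. Figures used matplotlib 3.10.9.

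The members, role groups and lists were chosen with earlier results of these data known. The rule for names gave every member, and in each list of other genes up to 3 called genes in each direction by size. The alternatives were other pseudocounts (1 and 64), filters (none, and the lowest 60% left out), scalings, probe set rules, variance models, a replicate block and each array left out. After such an omission the lone array's spread was taken from the other group. The replicate numbers are shared by the groups, but nothing says that they pair arrays.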

Additional observations from a re-analysis of the deposited data

How the results depend on the processing

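Of the 20 called members, 13 kept their call and direction in every alternative that could test them: Fas, Nfkbia, Nfkbid, Nfkbie, Nfkbiz, Rel, Tnf, Tnfaip8, Tnfaip8l2, Tnfrsf1a, Tnfrsf21, Tnfsf13b and Tnfsf14, all lower. The count of members called lower was 13 to 19 with an array left out and 33 with arrays scaled to the hybridization controls. The count called higher, 3 as reported, was 0 to 3 with an array left out, 1 with quantile normalization, 0 with the control scaling and 0 with the lowest 60% of probe sets left out, since all 3 genes lie under that filter. The count of changed genes over all genes was 2575 to 5441 with an array left out. Except for the filter, the cause was not tested. Under the control scaling Tnfaip3 (-1.27), Tnfaip8l1 (-1.18) and Traf6 (-1.16), which gave no call as reported, changed sign and were called lower, and among the other genes named here Fadd (-0.46) and Sod2 (-0.20), called higher as reported, changed sign and lost the call. That scaling shifts the median of all genes to -0.95, and which scaling is right was not tested. With the replicate block 3 members were called higher and 20 lower, and 5562 genes changed, with 14.6 degrees of freedom after moderation. Among the members, quantile normalization ended the calls of Rela, Tnfaip2, Tnfsf4 and Traf4, and no variance trend those of Rela and Tnfaip2. No filter ended those of Relb and Tnfsf4, equal medians that of Tnfsf4, and the mean of probe sets that of Tnfsf10. Same-numbered arrays did not deviate together (correlation -0.03 over genes), so the block has no support as a pairing. Over all tested members and alternatives, 30 of 671 values lost a call and 26 gained one. The sign turned in 35 values of 15 members, all of them members without a call as reported, and 3 of these values, those named above, gained a call with it. Of the 23 members without a call, 18 gained one in some alternative, most often under the control scaling. Dim signals, with no detection calls at hand, limit Traf4, Tnfsf4, Tnfsf10 and the 13 untested genes. Of the members called lower, Fas, Rel, Relb and Tnf had leukemic signals of 111 or below, so the size of their falls is uncertain. With a pseudocount of 1 and of 64 the log2 fold change was -4.40 and -2.89 for Fas and -2.54 and -1.73 for Rel.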
